A study of Homo sapiens with 6 samples.

Results

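The genes described here are the cilium, axoneme and microtubule genes among the genes that differed between AsPC-1 cells with and without a short hairpin RNA against TMPRSS4. They are the genes of the deposited table whose cellular component annotation contains cilium, ciliary, axoneme, axonemal, dynein, centriole, basal body, centrosome or microtubule, plus SPEF2, CCDC103 and FAM227A. Of 753 listed genes 57 were members, 55 of them through the annotation text and 2 (SPEF2 and FAM227A) through their name alone. By the first matching text they fell into 34 genes of cilium and axoneme, 8 of centrosome and centriole, and 15 with microtubule text only. The text match does not always mark a cilium gene. EBI3, a subunit of the cytokine interleukin 27, matched only because its annotation names the receptor complex of ciliary neurotrophic factor, and HAVCR1, PCDHB13 and PCDHB15 encode cell surface proteins better known outside the cilium.

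AsPC-1 is a long-established line of human pancreatic cancer cells. RNA was sequenced from 3 samples with a control lentivirus (control group) and 3 samples with a shTMPRSS4 lentivirus (shTMPRSS4 group), where TMPRSS4 is a membrane-bound serine protease. Both groups had therefore been transduced, and the labels do not say whether the replicates were separate cultures or how many hairpins were used, so p-values measure only the spread between these samples. The level of TMPRSS4 itself was not analysed here, and the knockdown could not be checked. Recovered depth was 30200000 to 57200000 reads in control and 46800000 to 53300000 reads in shTMPRSS4 libraries.

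A cilium is built on an axoneme, a ring of microtubule doublets that grows from a basal body, which is a modified centriole docked at the cell surface. Primary cilia are single, immotile and act as signalling antennae, for example in the Hedgehog pathway, and duct cells of the normal pancreas carry them while many pancreatic cancer cells do not. Motile cilia add dynein arms, radial spokes and a central pair of microtubules, and are the hallmark of multiciliated cells of airway, oviduct and brain ventricle. Cytoplasmic dynein and kinesins move cargo along microtubules in every cell, and the centrosome organises microtubules outside the cilium as well.

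The comparison asks which of these transcripts differed between shTMPRSS4 and control libraries. Most members were higher in the shTMPRSS4 libraries, from abundant light chains of cytoplasmic dynein to axonemal genes at a few reads, and 6 were lower. By the authors' deposited table, 51 of 57 members (89.5%) were higher, against 73.7% of all 753 listed genes, and 6 were lower against 26.3%. In each of the 57 members the 3 shTMPRSS4 libraries lay entirely above or entirely below the 3 controls after scaling for depth, a pattern that 98.0% of the listed genes shared. The edgeR quasi-likelihood test, adjusted by Benjamini-Hochberg over the 705 listed genes that passed its filter on low counts, tested 53 members. All 53 passed, 47 of them higher and 6 lower, beside 99.1% of all tested genes (73.3% higher and 25.8% lower). Every listed gene was selected by the authors for a difference in these same libraries, so the passing members say nothing beyond that selection and the values are a description. PKD2L1, DRD2, FEZ1 and CFAP126 did not pass the filter and were not tested. The median log2 fold change over the members was 1.37 and that over all listed genes 1.34, with genes at 0 counts in a group set at their lower bound or not.

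Directions are relative to library depth recovered from the counts and the FPKM values (fragments per kilobase of gene scaled to library depth, a level that allows comparison between genes). When the scale was instead set over the listed genes, whose median change was then moved by -1.18 (TMM) or -1.16 (DESeq2 size factors) on the log2 scale, 39 members were higher and 18 lower (68.4% higher), against 60.3% or 61.4% of all listed genes. The 12 members that turned lower were DYNLL2, TUBB3, PCDHB15, LRRCC1, IQCG, CEP112, MAP2, KIF27, BBOF1, AGBL2, KIF26B and PKHD1. With TMM 18 members passed the edgeR test (12 higher), beside 359 listed genes (167 higher). Of the members given here library by library, those that passed as higher under both TMM and DESeq2 size factors were CAPN6, DYNLRB1, HEPACAM2, SEPT3, CYS1, DNALI1, KIF19, CFAP70, DNAI1 and KIF25. For the other tested members given library by library, a rise is a call with recovered depth that was lost or reversed under these scalings. Scaling over genes that were all selected for a difference removes the change that most of them share. A call lost or turned in this way therefore cannot decide whether a gene rose. The 12 that turned lower were higher with upper-quartile scaling over the same genes, which moved the median of all listed genes by -0.715. The plot of the members under the 4 scalings shows this shift.

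**Figure D1:**
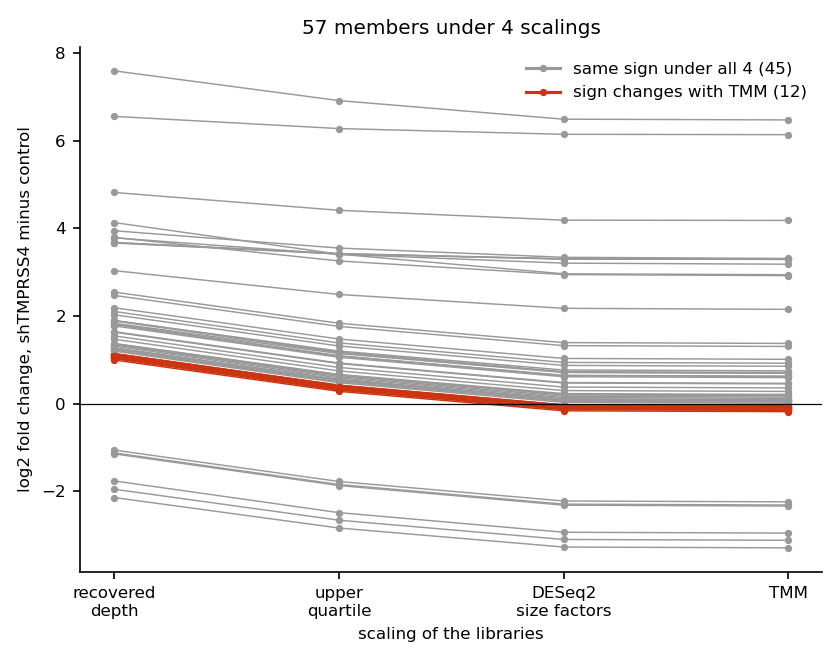
Log2 fold change (shTMPRSS4 minus control, vertical axis) of each of the 57 members under 4 ways of scaling the libraries (horizontal axis), with 1 line per member. Red lines are the 12 members that were higher with recovered depth and upper-quartile scaling and lower with DESeq2 size factors and TMM, and grey lines are the 45 whose sign was the same under all 4.

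Mean levels of the members ran from 0.045 FPKM (DRD2) to 88.2 FPKM (DYNLRB1), and most were low. Of the 57 members 34 (59.6%) had a mean under 1 FPKM over the 6 libraries, against 48.5% of all listed genes, and 6 had a mean of at least 20 FPKM. The 22 low genes of the cilium and axoneme group made up 64.7% of that group. The plot of levels by library shows the 32 members that reached 1 FPKM in 1 of the groups, of which 27 were higher and 5 lower, or 84.4% higher against 71.2% of the 458 listed genes at that level.

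**Figure D2:**
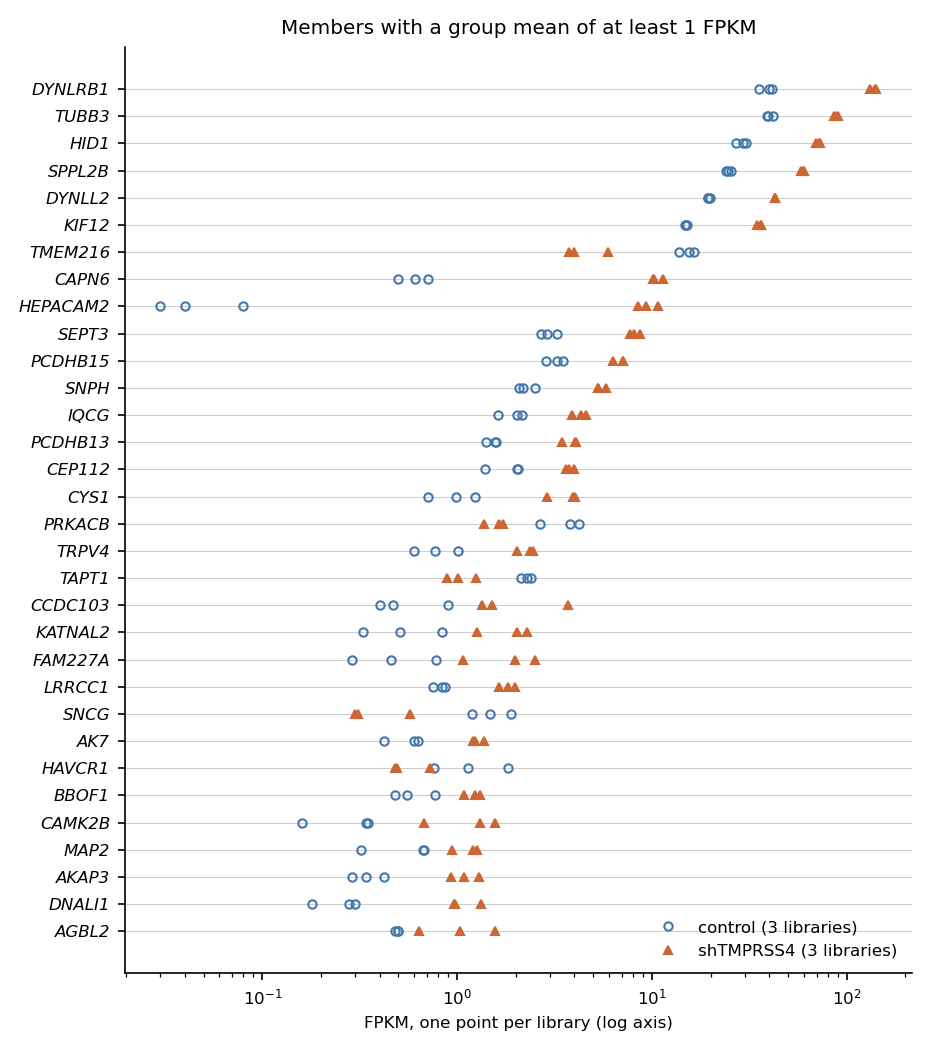
FPKM in each library (log axis) for the 32 members whose higher group averaged 1 FPKM or more, ordered by that mean, with open circles for the 3 control and triangles for the 3 shTMPRSS4 libraries. The groups do not overlap in any gene, TMEM216, PRKACB, TAPT1, SNCG and HAVCR1 lie lower in shTMPRSS4, and 9 of the genes drawn as higher (DYNLL2, TUBB3, PCDHB15, LRRCC1, IQCG, CEP112, MAP2, BBOF1 and AGBL2) turned lower under TMM or DESeq2 scaling over the listed genes.

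Genes of the axonemal dynein arms, the motors that bend motile cilia, were low in all libraries and higher in shTMPRSS4. Of 30 names in a list of dynein arm genes 4 were among the listed genes. All 4 were higher under every scaling tried, where 73.7% of all listed genes were higher with recovered depth. DNALI1 and DNAI1 alone of the 4 passed the test under TMM and DESeq2 size factors. The summed level of the 4 was 0.5 to 0.58 FPKM in the control and 2.06 to 2.48 FPKM in the shTMPRSS4 libraries. DNALI1 (ENSG00000163879, GRCh38 chromosome 1, 37556919 to 37566857), a light intermediate chain of the inner arm, had 0.18, 0.28 and 0.3 FPKM in control replicates 1, 2 and 3 and 1.33, 0.98 and 0.96 FPKM in shTMPRSS4 replicates 1, 2 and 3. Every shTMPRSS4 library was more than 3 times the highest control, and the gene rose by a log2 fold change of 2.10 ± 0.28 (SE), with an edgeR adjusted p of 3.21e-05. DNAI1 (ENSG00000122735, chromosome 9, 34457414 to 34520989), an intermediate chain of the outer arm whose loss causes primary ciliary dyskinesia, was close to silent in the controls. It had 0, 2 and 0 reads there and 33, 20 and 31 reads in the shTMPRSS4 libraries, or 0, 0.03 and 0 against 0.36, 0.23 and 0.39 FPKM. The ratio of depth-scaled reads was 34.8, with an exact 95% counting interval of 9.33 to 292, and the edgeR adjusted p was 0.000164. No shTMPRSS4 library had fewer than 20 reads and no control more than 2. Without control replicate 2, which held both reads, its log2 fold change was 5.73 in place of 4.82.

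DNAH7, a heavy chain of the inner arm, had 0.31, 0.24 and 0.1 FPKM in the controls and 0.57, 0.66 and 0.6 FPKM with shTMPRSS4. CCDC114, a subunit of the docking complex that anchors outer arms to the doublets, had 0.05, 0.03 and 0.1 FPKM in the controls and 0.22, 0.19 and 0.25 FPKM with shTMPRSS4. For both the lowest shTMPRSS4 library exceeded the highest control, and both rose (edgeR adjusted p of 0.00187 and 0.00200), on 101 and 23 control reads over 3 libraries. Under TMM both calls were lost (edgeR adjusted p of 0.602 and 0.247). The log2 fold change of DNAH7, 1.63, was 1.96 without control replicate 1 and 1.14 without control replicate 3. CCDC103, which helps attach dynein arms, was the 1 listed gene among 18 names for dynein arm assembly. It had 0.9, 0.4 and 0.47 FPKM in the controls and 1.51, 3.72 and 1.34 FPKM with shTMPRSS4, so replicate 2 lay far above the other two in a group mean of 2.19 ± 1.33 FPKM (SD, n = 3). In GENCODE release 29, 98.8% of the exon bases of CCDC103 lie in exons of other genes (FAM187A on the same strand, GFAP and EFTUD2 on the other), and the library protocol in the labels describes no marking of strand, so its reads cannot be told apart from theirs.

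Genes of the central pair, the radial spokes and the nexin link, which together regulate dynein in the beating axoneme, were also higher. Of 36 names in that list 5 were listed and all were higher, against 73.7% of all listed genes. IQCG turned lower under TMM and DESeq2 scaling over the listed genes. SPEF2, a protein of the central pair, had 0.39, 0.3 and 0.15 FPKM in the controls and 0.67, 0.61 and 0.59 FPKM with shTMPRSS4. Its log2 fold change of 1.25 was 1.54 without control replicate 1 and 0.86 without control replicate 3. With TMM it was 0.07 and the call was lost (edgeR adjusted p of 0.878). RSPH4A, a component of the radial spoke head, had 8, 3 and 0 reads in the controls and 22, 22 and 20 with shTMPRSS4, or 0.06, 0.03 and 0 against 0.18, 0.19 and 0.18 FPKM. It rose by a log2 fold change of 3.04 ± 1.16 (SE), with an edgeR adjusted p of 0.00369. The call was lost under TMM (edgeR adjusted p of 0.18). The value 3.04 rests on single controls, since it was 3.75 without control replicate 1 and 1.90 without control replicate 3. CFAP70, a cilia and flagella associated protein, had 0.23, 0.07 and 0.11 FPKM in the controls and 0.76, 0.71 and 0.63 FPKM with shTMPRSS4. CFAP70 rose by a log2 fold change of 2.47 ± 0.50 (SE; edgeR adjusted p of 0.000225), and the shTMPRSS4 libraries were closer to each other than the controls were. IQCG, a subunit of the nexin-dynein regulatory complex, was the most abundant of the 5, at 2.15, 2.04 and 1.62 FPKM in the controls and 4.56, 4.31 and 3.91 FPKM with shTMPRSS4. RSPH14, a radial spoke gene of the list that the annotation text did not select, had 0, 0.24 and 0.3 FPKM in the controls and 1.35, 1.10 and 1.09 FPKM with shTMPRSS4.

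**Figure D3:**
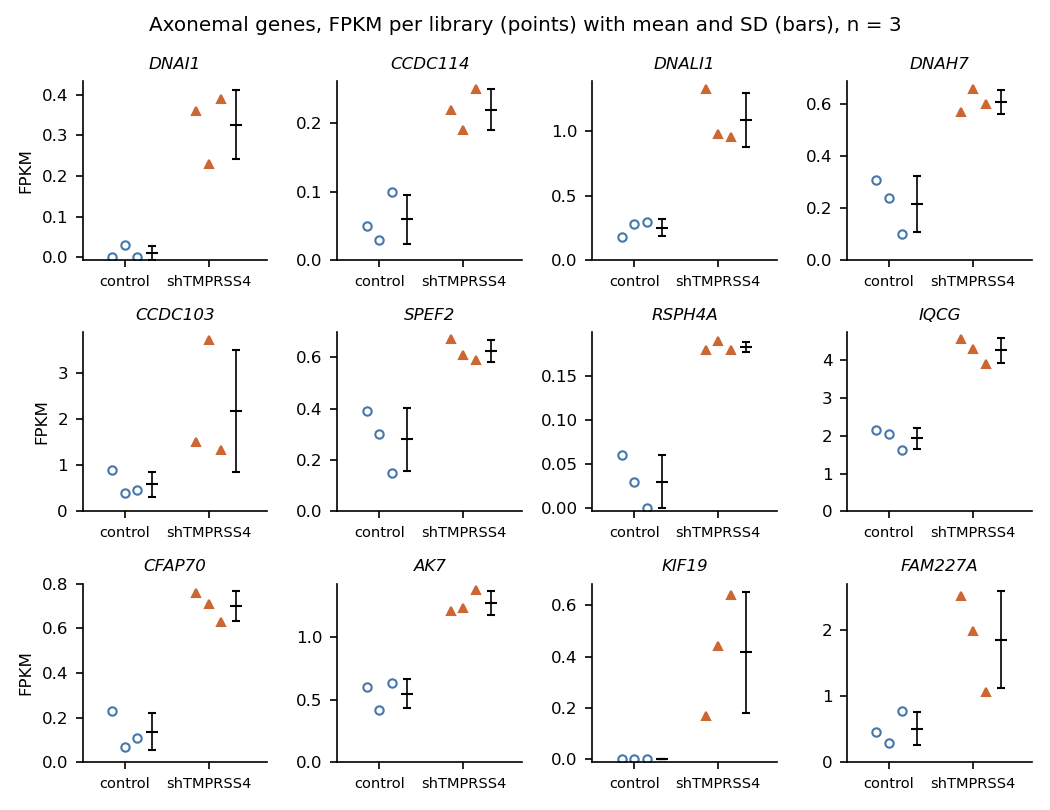
FPKM per library (points, linear axes) with the group mean and SD (bars, n = 3) for 12 members, control on the left and shTMPRSS4 on the right of each panel. Most are genes of the motile axoneme, beside KIF19, a kinesin of ciliary tips, and FAM227A, a gene of unknown function. All 12 genes lie higher in shTMPRSS4, KIF19 is at 0 in every control, and CCDC103 and KIF19 differ widely among shTMPRSS4 libraries. Of the 12, IQCG turned lower under TMM and DESeq2 scaling over the listed genes. Under those scalings only DNALI1, DNAI1, CFAP70 and KIF19 of the 12 still passed the test as higher.

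Other genes of cilia and flagella followed the same direction. KIF19 (ENSG00000196169, chromosome 17, 74326210 to 74355820), a kinesin that shortens microtubules at ciliary tips and so limits cilium length, had no reads in any control. It had 25, 62 and 84 reads in the shTMPRSS4 libraries (0.17, 0.44 and 0.64 FPKM) and was at least 47.2-fold higher, against a floor of 3 counts over the control group that covers counting error only (edgeR adjusted p = 0.000485). The shTMPRSS4 libraries differed among themselves by more than 3 times in FPKM. FAM227A, a gene of unknown function, had 0.46, 0.29 and 0.78 FPKM in the controls and 2.52, 1.98 and 1.07 FPKM with shTMPRSS4. It had the highest adjusted p of the tested members (edgeR, 0.0126), and the call was lost without control replicate 1 (adjusted p of 0.0661, in a range of 0.00432 to 0.0661 over the 6 single libraries left out). AK7, an adenylate kinase of motile cilia, had 0.6, 0.42 and 0.63 FPKM in the controls and 1.21, 1.23 and 1.38 FPKM with shTMPRSS4. AKAP3, a kinase anchor of the sperm tail, had 0.42, 0.34 and 0.29 FPKM in the controls and 0.93, 1.09 and 1.3 FPKM with shTMPRSS4. Both were higher in every shTMPRSS4 library than in any control, and neither reached 1.5 FPKM. With TMM both calls were lost, at log2 fold changes of 0.04 and 0.47.

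Some genes tied to the basal body were similar in level, while TMEM216 and TAPT1, given below, were more abundant in the controls and fell. PIFO, linked to disassembly of the primary cilium, had 0.35, 0.32 and 0.29 FPKM in the controls and 0.73, 1.04 and 0.63 FPKM with shTMPRSS4. BBOF1, named for its part in orienting basal bodies, had 0.77, 0.48 and 0.55 FPKM in the controls and 1.24, 1.31 and 1.09 FPKM with shTMPRSS4, and it turned lower under the scalings named above. CFAP126, which positions basal bodies, had 0 control reads and 13, 5 and 4 reads with shTMPRSS4, so it was at least 6.07-fold higher. All of the exon bases of CFAP126 overlap SDHC, a mitochondrial enzyme gene on the opposite strand, and its reads cannot be told apart from those of SDHC without strand. PIFO and CFAP126, with the tubulin deglutamylase AGBL2, were the 3 listed genes among 30 markers of multiciliated cells, and their summed level was 0.77 to 0.85 FPKM in the controls and 1.38 to 2.61 FPKM with shTMPRSS4. The defining transcription factor of those cells, FOXJ1, and the other markers were not among the listed genes and were not analysed here. None of 13 regulators of motile ciliogenesis and none of 44 genes of intraflagellar transport and the BBSome was listed.

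Enzymes that modify tubulin tails, and the kinesin KIF27, completed the low-level group. AGBL2 had 0.5, 0.5 and 0.48 FPKM in the controls and 1.57, 1.04 and 0.64 FPKM with shTMPRSS4. TTLL7, a polyglutamylase that adds the marks AGBL2 removes, had 0.12, 0.13 and 0.13 FPKM in the controls and 0.39, 0.31 and 0.29 FPKM with shTMPRSS4. KIF27, a relative of the Hedgehog regulator KIF7, had 0.62, 0.4 and 0.29 FPKM in the controls and 1.05, 0.97 and 0.7 FPKM with shTMPRSS4. Of these TTLL7 had the tightest replicates and kept its direction under all scalings, while AGBL2 and KIF27 turned lower under TMM and DESeq2 scaling. Of the 31-base words in KIF27 transcripts 42.4% occur in other genes, so its level depends on how shared reads were assigned.

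RFX transcription factors regulate cilium genes through the X-box, an imperfect palindrome near the start site, and forkhead factors such as FOXJ1 act on motile cilium genes. RefSeq windows of 250 bases before to 50 after the annotated start (GRCh38.p14) were found for 44 members, 71 windows in all, and were searched on both strands. The X-box in a strict form of 14 letters was in 2 windows of members (2.82%) and in 0.49% of all 35116 windows. A relaxed form of the same length, which includes every match of the strict form, was in 7 (9.86%), against 4.82%. The shorter letters GTTGCC, a part of the X-box, were in 12 (16.9%), against 12.2%. The forkhead letters TGTTTAC were in 2 (2.82%), against 3.42%. The 80 bases before the start are shown for the members with an X-box match of 14 letters inside them. They are printed 5′ to 3′ on the gene's strand with the match in capitals, because they show where in the promoter the letters lie.
DNALI1 (chr1:37556860-37556939, plus strand): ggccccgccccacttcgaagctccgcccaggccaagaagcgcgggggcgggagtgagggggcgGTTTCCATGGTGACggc
PIFO (chr1:111346542-111346621, plus strand): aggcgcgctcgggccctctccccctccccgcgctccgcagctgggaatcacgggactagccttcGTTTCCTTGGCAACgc
IQCG (chr3:197949926-197950005, minus strand): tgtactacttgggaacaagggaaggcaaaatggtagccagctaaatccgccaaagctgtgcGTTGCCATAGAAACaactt
FAM227A (chr22:38656393-38656472, minus strand): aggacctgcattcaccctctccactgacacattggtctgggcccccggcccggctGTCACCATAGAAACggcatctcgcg
CEP112 (chr17:66192134-66192213, minus strand): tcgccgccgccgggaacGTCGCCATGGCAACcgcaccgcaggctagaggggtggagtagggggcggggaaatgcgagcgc
PRKACB (chr1:84164614-84164693, plus strand): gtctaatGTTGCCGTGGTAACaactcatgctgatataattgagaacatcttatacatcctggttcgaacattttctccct
The match began 16 to 25 bases before the start in PIFO, DNALI1, IQCG and FAM227A, and 63 and 73 bases before it in CEP112 and PRKACB. PIFO and PRKACB hold the stricter form. Of these 6 genes PRKACB was lower in the shTMPRSS4 libraries and the others were higher, with IQCG and CEP112 turning lower under TMM and DESeq2 scaling over the listed genes. A match describes letters in the reference, and no binding was measured.

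Genes of the ciliary membrane and of signalling at the primary cilium went both ways. TMEM216 (ENSG00000187049, chromosome 11, 61391687 to 61398863), a protein of the transition zone that gates entry to the cilium and is mutated in Joubert and Meckel syndromes, was the most abundant member that fell. It had 15.4, 16.4 and 13.7 FPKM in control replicates 1, 2 and 3 and 3.98, 5.93 and 3.77 FPKM with shTMPRSS4. It fell by 1.76 ± 0.22 (SE) on the log2 scale, with an edgeR adjusted p of 8.68e-06. No shTMPRSS4 library came near the lowest control. TMEM216 was the 1 listed gene among 46 names for centriole and basal body genes. TAPT1, a membrane protein of the basal body, had 2.39, 2.28 and 2.12 FPKM in the controls and 1.25, 0.89 and 1.01 FPKM with shTMPRSS4. PRKACB, a catalytic subunit of protein kinase A, which acts at the ciliary base to restrain Hedgehog signalling, had 4.23, 2.67 and 3.78 FPKM in the controls and 1.38, 1.73 and 1.65 FPKM with shTMPRSS4. Both fell, with edgeR adjusted p of 4.60e-05 and 0.000157.

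Membrane proteins of the cilium shaft were higher. CYS1, cystin, a lipid-anchored ciliary protein whose loss gives polycystic kidneys in mice, had 1.23, 0.99 and 0.71 FPKM in the controls and 3.94, 2.89 and 4.01 FPKM with shTMPRSS4. TRPV4, a cation channel that responds to osmotic and mechanical stimuli, had 0.77, 1.01 and 0.6 FPKM in the controls and 2.02, 2.45 and 2.38 FPKM with shTMPRSS4. GPR161, a ciliary receptor that raises cAMP and holds Hedgehog signalling down, had 0.47, 0.5 and 0.31 FPKM in the controls and 0.97, 0.81 and 1.14 FPKM with shTMPRSS4. All 3 rose, and CYS1 rose most, by a log2 fold change of 1.90 ± 0.27 (SE). GPR161 kept its direction by little under TMM, at a log2 fold change of 0.01. GPR161 and the ligand gene IHH were the 2 listed genes among 13 of the Hedgehog pathway. IHH, which no cilium text selected, had 1.36, 1.14 and 1.36 FPKM in the controls and 2.99, 2.87 and 2.62 FPKM with shTMPRSS4.

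The polycystin family channel PKD2L1 and the dopamine receptor DRD2 had 2 and 0 control reads and 38 and 24 reads in the shTMPRSS4 libraries. The ratio of PKD2L1 was 15.7, with an exact 95% counting interval of 4.07 to 135, and DRD2 was at least 6.62-fold higher. Neither gene was tested, and both stayed under 0.3 FPKM in every library. PKHD1, fibrocystin, mutated in recessive polycystic kidney disease, had 0.0533 ± 0.0115 FPKM in the controls and 0.107 ± 0.00577 FPKM with shTMPRSS4 (SD, n = 3) and turned lower under TMM and DESeq2 scaling. The protocadherins PCDHB13 and PCDHB15 were selected through the text photoreceptor connecting cilium. PCDHB13 had 1.4, 1.58 and 1.57 FPKM in the controls and 3.47, 4.01 and 4.09 FPKM with shTMPRSS4. PCDHB15 had 3.49, 3.24 and 2.86 FPKM in the controls and 6.3, 7.12 and 7.07 FPKM with shTMPRSS4, and turned lower under TMM and DESeq2 scaling. In both genes the replicates were close, but 33.2% and 24.2% of their 31-base words occur in other genes, mostly of the same family.

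Members that fell without a clear part in the cilium were HAVCR1, EBI3 and SNCG. HAVCR1, an injury marker of kidney tubules, had 1.14, 0.76 and 1.83 FPKM in the controls and 0.73, 0.48 and 0.49 FPKM with shTMPRSS4, so the groups almost met. EBI3 had 0.59 ± 0.07 FPKM in the controls and 0.137 ± 0.0723 FPKM with shTMPRSS4 (SD, n = 3). SNCG (ENSG00000173267, chromosome 10, 86958618 to 86963260), gamma-synuclein, had 1.89, 1.47 and 1.19 FPKM in the controls and 0.3, 0.57 and 0.31 FPKM with shTMPRSS4. SNCG fell by 1.95 ± 0.35 on the log2 scale (edgeR adjusted p = 0.000549). With EBI3 left out, which was decided after its values were seen, 51 of 56 members (91.1%) were higher.

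Light chains of cytoplasmic dynein, the motor for transport towards the centrosome, were among the 5 most abundant members and had close replicates. DYNLRB1 (ENSG00000125971, chromosome 20, 34516409 to 34540958), a roadblock light chain, had 35.4, 41.5 and 39.9 FPKM in the controls and 131, 142 and 140 FPKM with shTMPRSS4. It rose by a log2 fold change of 1.82 ± 0.08 (SE), with an edgeR adjusted p of 2.28e-09, and was higher under every scaling tried (0.63 with TMM). DYNLL2 (ENSG00000264364, chromosome 17, 58083415 to 58095536), a light chain of the LC8 type shared by dynein and myosin V, had 19.9, 19.5 and 19.5 FPKM in the controls and 42.6, 43 and 42.8 FPKM with shTMPRSS4. Its log2 fold change of 1.12 ± 0.01 (SE; edgeR adjusted p of 1.10e-09) had the smallest SE of the members, yet it became -0.07 with TMM and -0.05 with DESeq2 size factors. The fold of DYNLRB1 was therefore larger than the shift between scalings and that of DYNLL2 was not. That compares each fold with the shift and does not decide whether DYNLL2 rose. Heavy and intermediate chains of cytoplasmic dynein and the dynactin subunits in the same list were not among the listed genes.

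All 5 kinesins of the list were higher with recovered depth, against 73.7% of all listed genes. KIF27 and KIF26B turned lower under TMM and DESeq2 scaling over the listed genes. KIF12 (ENSG00000136883, chromosome 9, 114086126 to 114099291), a kinesin of kidney and bile duct epithelium, had 15, 14.8 and 15.2 FPKM in the controls and 34.7, 36.2 and 36.5 FPKM with shTMPRSS4. KIF12 rose by a log2 fold change of 1.25 ± 0.02 (SE; edgeR adjusted p of 1.67e-08), which was 0.06 with TMM. KIF25, a kinesin of the centrosome, had 6, 2 and 0 reads in the controls and 21, 41 and 30 with shTMPRSS4, or 0.09, 0.04 and 0 against 0.32, 0.67 and 0.52 FPKM. It rose by a log2 fold change of 3.79 ± 1.07 (SE; edgeR adjusted p of 0.000614), which became 4.46 without control replicate 1 and 2.81 without control replicate 3. KIF26B had 0.06, 0.11 and 0.08 FPKM in the controls and 0.17, 0.15 and 0.2 FPKM with shTMPRSS4. With KIF19 and KIF27 described above, these genes ranged from no control reads to 15 FPKM, and KIF12 was the 1 kinesin above 1.5 FPKM. No gene of 40 for the mitotic spindle, mitotic kinesins included, was listed.

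The 8 members with centrosome or centriole text and no cilium text were all higher, against 73.7% of all listed genes. Of the 8, LRRCC1 and CEP112 turned lower under TMM and DESeq2 scaling. Over all 13 members annotated to the centrosome, 11 were higher. SPPL2B (ENSG00000005206, chromosome 19, 2328615 to 2354806), an intramembrane protease, had 23.9, 25.4 and 24.7 FPKM in the controls and 59.5, 58.4 and 60.4 FPKM with shTMPRSS4. It rose by a log2 fold change of 1.27 ± 0.03 (SE; edgeR adjusted p of 3.24e-09) and stood at 0.08 with TMM. HEPACAM2, an immunoglobulin-family membrane protein also found at the mitotic centrosome, had 3, 3 and 5 reads in the controls and 1018, 1108 and 817 with shTMPRSS4. Its FPKM went from 0.03, 0.04 and 0.08 to 9.31, 10.7 and 8.52, the largest log2 fold change of the members that had control reads (7.59 ± 0.44 SE; edgeR adjusted p of 1.10e-09). LRRCC1, a protein of the centriole, had 0.87, 0.75 and 0.84 FPKM in the controls and 1.98, 1.83 and 1.65 FPKM with shTMPRSS4. CEP112, a centrosomal protein, had 2.04, 1.39 and 2.05 FPKM in the controls and 3.98, 3.76 and 3.61 FPKM with shTMPRSS4. These 2 genes, the members whose proteins are core parts of the centrosome, had log2 fold changes of 1.15 and 1.07 at modest levels. MAMLD1 and SPERT rose from 0.1 ± 0.0265 to 0.6 ± 0.1 and from 0.203 ± 0.0611 to 0.54 ± 0.122 FPKM (SD, n = 3 per group). FEZ1, an adaptor for kinesin cargo in axons, had 0 control reads and 22 with shTMPRSS4 and was at least 6.07-fold higher, without a test.

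Genes with microtubule text only were higher in 14 of 15 cases, against 73.7% of all listed genes, and many are known from neurons. TUBB3, MAP2 and KIF26B turned lower under TMM and DESeq2 scaling. TUBB3 (ENSG00000258947, chromosome 16, 89921392 to 89938761), the class III beta-tubulin of neurons, was the 1 listed gene among 23 tubulins. It had 39.6, 41.7 and 38.9 FPKM in the controls and 88.4, 90 and 85.5 FPKM with shTMPRSS4, a log2 fold change of 1.14 ± 0.04 (SE; edgeR adjusted p of 2.03e-08) that became -0.06 with TMM. A read-through gene, AC092143.1, shares 35.8% of its exon bases, and 36.3% of its 31-base words occur in other genes. HID1 (ENSG00000167861, chromosome 17, 74950743 to 74973166), needed for dense-core granules of secretory cells, had 29.3, 30.3 and 26.9 FPKM in the controls and 69.9, 72.8 and 72.2 FPKM with shTMPRSS4. Its log2 fold change was 1.31 ± 0.05 (SE; edgeR adjusted p of 1.28e-08), or 0.12 with TMM. TUBB3 and HID1 were thus abundant in the controls, and their folds were 2.20 and 2.49.

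CAPN6 (ENSG00000077274, chromosome X, 111245103 to 111270523), a calpain without protease activity that stabilises microtubules, changed far more. It had 0.61, 0.71 and 0.5 FPKM in the controls and 10.2, 10.2 and 11.4 FPKM with shTMPRSS4, a log2 fold change of 4.13 ± 0.15 (SE; edgeR adjusted p of 9.02e-10) that stayed at 2.94 with TMM. All 5 listed genes among 71 names of microtubule-associated proteins and tubulin modifiers were higher, against 73.7% of all listed genes. They were CAPN6, TTLL7, AGBL2, KATNAL2 and MAP2, of which AGBL2 and MAP2 turned lower under TMM and DESeq2 scaling. KATNAL2, a relative of the microtubule-severing enzyme katanin, had 0.84, 0.51 and 0.33 FPKM in the controls and 2.28, 1.27 and 2.04 FPKM with shTMPRSS4. MAP2, a microtubule-associated protein of dendrites, had 0.67, 0.68 and 0.32 FPKM in the controls and 0.94, 1.27 and 1.21 FPKM with shTMPRSS4. In both genes the controls spread by more than 2 times but stayed under the lowest shTMPRSS4 library. The log2 fold change of MAP2, 1.09, was 1.26 without control replicate 1 and 0.74 without control replicate 3.

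SEPT3 (ENSG00000100167, chromosome 22, 41969475 to 41998221), a septin of neurons, had 3.27, 2.68 and 2.88 FPKM in the controls and 7.7, 8.07 and 8.71 FPKM with shTMPRSS4. It rose by a log2 fold change of 1.47 ± 0.10 (SE; edgeR adjusted p of 3.93e-07). SNPH, syntaphilin, which anchors mitochondria on axonal microtubules, had 2.52, 2.08 and 2.19 FPKM in the controls and 5.26, 5.26 and 5.82 FPKM with shTMPRSS4. CAMK2B, a calcium-dependent kinase of synapses, had 0.16, 0.34 and 0.35 FPKM in the controls and 1.31, 0.68 and 1.56 FPKM with shTMPRSS4. It rose by a log2 fold change of 2.03 ± 0.51 (SE; edgeR adjusted p of 0.000515), with replicate 2 the lowest of the shTMPRSS4 libraries. The remaining 4 genes of this group, NAV3, REEP2, FGF13 and KANK4, rose from means of 0.00667 to 0.343 FPKM in the controls to means of 0.107 to 0.927 FPKM with shTMPRSS4.

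**Figure D4:**
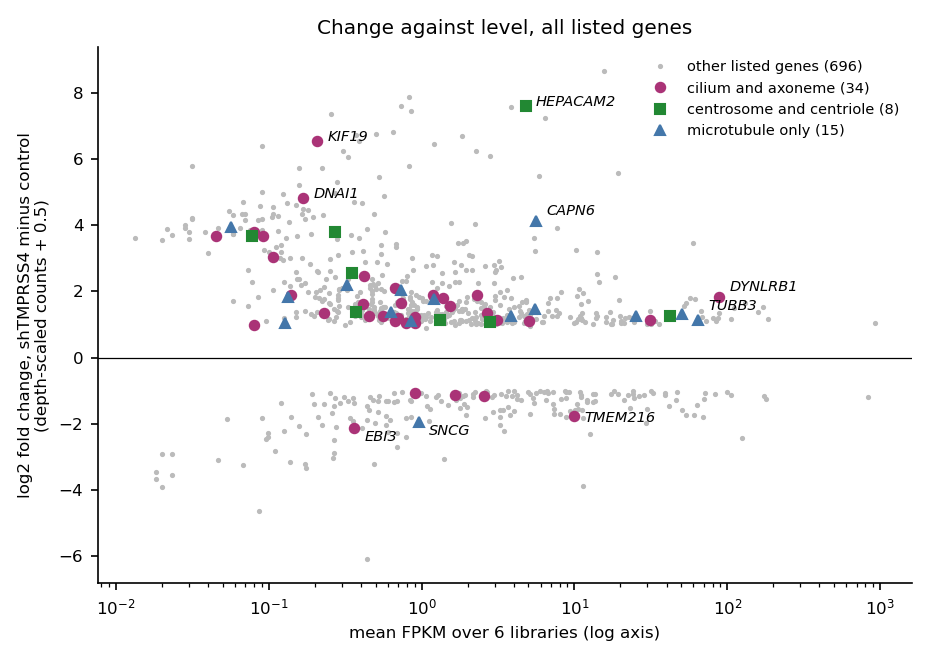
Log2 fold change (shTMPRSS4 minus control, depth-scaled counts plus 0.5) against the mean FPKM over 6 libraries (log axis), with the other listed genes in grey and members coloured by annotation group. Members lie along the same band as the other listed genes, which starts near a log2 change of 1 because the authors selected on it, and 6 members lie under 0. KIF19 at 6.55 had no control reads, so its position depends on the pseudocount.

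Some members carried process annotation of movement along microtubules, which the rule did not read but which is close to its text. The process term microtubule-based movement was carried by 8 listed genes, all of them members and all higher, and cilium movement by 5 listed genes, likewise all members and all higher. Of all listed genes 73.7% were higher, so sets of this size that were all higher say little about the sets. The function terms microtubule motor activity (7 of 7 listed genes) and microtubule binding (11 of 15) overlap the rule's own text and add no independent evidence.

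Some markers of secretory cell types were also higher in the shTMPRSS4 libraries, as were 73.7% of all listed genes. Of 15 goblet cell markers 5 were listed and higher, with a summed level of 65.3 to 68.6 FPKM in the controls and 276 to 282 FPKM with shTMPRSS4. Most of the control sum was CREB3L1, at 50.7 to 56.2 FPKM in the controls and 119 to 124 FPKM with shTMPRSS4. TFF3 had 7.81 to 11.5 FPKM in the controls and 109 to 111 FPKM with shTMPRSS4. Of 21 enteroendocrine and islet markers 3 were listed and higher, summing to 0.24 to 0.25 FPKM in the controls and 12.6 to 14.1 FPKM with shTMPRSS4, and PAX4 and GCG were at 0 reads in every control. Of the others, 1 of 14 tuft cell markers, ALOX5, was listed and higher, 1 of 14 acinar and 1 of 9 fibroblast markers were higher, 1 of 7 endothelial markers was lower, and none of 10 immune markers was listed. The part of these cell states in the levels of HEPACAM2, HID1, TUBB3, SNPH and the other members was not tested, and in bulk RNA more cells of a type and more RNA per cell cannot be told apart.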

How the data were processed

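Poly(A)-selected RNA of 6 AsPC-1 libraries, 3 per group, was sequenced, per the labels' protocols. The authors deposited 1 table of 753 genes that holds read counts and FPKM of each library beside the p-value, FDR and log2 fold change of their own test. The deposited log2 values are all at least 1 in size and the deposited FDR at most 0.0490, so the genes were selected on the outcome. Per the submitters' processing notes Bowtie 0.12.2 and the builds mm8 and mm9 were used, although the gene identifiers are human. The sources used here do not give the role of those builds or the annotation that was counted.

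Library depth was recovered from the ratio of counts to FPKM (159 genes for relative and 12 for absolute depth). It replaced the normalization over genes that had been planned, because the listed genes are selected. Counts were tested with edgeR 4.0.16 (quasi-likelihood, robust, filterByExpr) in R 4.3.3, with Benjamini-Hochberg adjustment and a threshold of 0.05. Fold changes with SE are differences of mean log2 (depth-scaled count + 0.5). DESeq2 1.42.0, limma 3.58.1, other scalings, a replicate block and leaving out each library were alternatives. The script was tested on simulated data.

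Genes given with full statistics were the 10 members with the highest level and the 10 with the largest change among those with at least 50 counts over the 6 libraries, taken from members that reached 1 FPKM in a group mean, belong to a gene list or were selected by name. Members and gene lists were chosen with earlier results of these data known. The samples were not paired by replicate number in the main test, and the libraries showed no sign of such pairing. Coordinates and exon overlaps are from GENCODE release 29 (GRCh38), and promoters from RefSeq (GRCh38.p14). Intervals and floors cover counting error only. Control replicate 3 carries the code L3 in its description and the other libraries L4, and the meaning of that code is not given.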

Additional observations from a re-analysis of the deposited data

How the results depend on the processing

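Scaling over the listed genes changed the most. With TMM 359 listed genes passed (167 higher) and 18 members (12 higher), with a median log2 fold change of 0.20 over the members. With DESeq2 size factors 368 listed genes passed (177 higher) and 19 members (13 higher), with a median of 0.22. The cause of these differences is the scale itself, since counts and genes were the same. Log2 fold changes that turned negative were, with TMM and then DESeq2 size factors, -0.067 and -0.047 for DYNLL2, -0.056 and -0.036 for TUBB3, -0.093 and -0.074 for PCDHB15, -0.043 and -0.023 for LRRCC1, -0.046 and -0.027 for IQCG, and -0.12 and -0.10 for CEP112. They were -0.092 and -0.073 for MAP2, -0.085 and -0.066 for KIF27, -0.15 and -0.13 for BBOF1, -0.15 and -0.13 for AGBL2, -0.13 and -0.11 for KIF26B, and -0.18 and -0.16 for PKHD1. With upper-quartile scaling, chosen after seeing the data, 30 members and 369 listed genes passed as higher, with medians of 0.66 over the members and 0.62 over all listed genes. On limma's log2(FPKM + 0.1) and log2(FPKM + 1) scales the median over the members was 1.15 and 0.49, against 1.14 and 0.47 over all listed genes. All 57 members passed on both scales, beside 743 and 736 of the 753 listed genes. Restricting the members to cilium, axoneme or basal body text left 31 that passed (26 higher), and to at least 1 FPKM left 32 (27 higher), because fewer genes were counted. Leaving out 1 library at a time gave medians of 1.34 to 1.48. With the replicate block 52 members (46 higher) and 682 listed genes (507 higher) passed, and FAM227A did not (adjusted p = 0.101). Same-numbered libraries had correlations of -0.0723, -0.0594 and -0.0215, and no control library correlated best with its own number. These values show no sign that the numbers pair the libraries. Taken as deviations from the mean of 3 libraries per group, they cannot exclude a pairing. Of 634 comparisons of named members with an alternative, 555 kept direction and side of the threshold, 53 lost the call, 22 reversed and 4, all CFAP126, gained a call. Members at a few reads, such as DRD2 and FEZ1, are limited by depth.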

Other observations

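Among the 51 members that were higher in shTMPRSS4, control replicate 3, the shallowest library, was the lowest control in 22 (43.1%) and control replicate 1, the deepest, was the highest in 23 (45.1%). The same libraries held these places in 35.9% and 39.5% of the 555 listed genes that were higher. The median coefficient of variation of the members was 23.9% over the controls and 16.0% over the shTMPRSS4 libraries, against 19.4% and 12.6% over all listed genes. Where the higher group averaged 5 FPKM or more, the members had medians of 8.46% and 5.03%.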
